A study of Mus musculus with 20 samples.

Results

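Pla2g5, Kazald1, Rspo3, Ces1d, Ak4, Mettl21e, Mybph and Tmem266 are 8 autosomal genes whose RNA was lower in skeletal muscle of male mice than of female mice. They were picked by name for that difference in estimated read counts of the 20 libraries used here, out of 53465 gene identifiers in the deposited tables, of which 15709 passed a filter on low counts. All 8 passed that filter. Their difference between the sexes is therefore given below as a description, without a test. All mice were wild type, and the libraries fell into 4 groups of 5: trained males, non-trained males, trained females and non-trained females. RNA was poly(A)-selected and sequenced with a kit that marks the strand. Which muscle was taken, how old the mice were, how they were trained and when tissue was collected are not in the labels, and no batch is named. The labels also do not tie each library to its own animal, so the spread behind every p-value is that between libraries and may be technical.

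Several of the 8 genes encode proteins that leave the cell or handle lipids and nucleotides. Secreted phospholipases A2 release fatty acids from membrane phospholipids, R-spondins strengthen Wnt signals at the cell surface, carboxylesterases hydrolyse stored lipid, and adenylate kinases pass phosphate groups between nucleotides. Muscle fibres are classed as slow, oxidative fibres with slow myosin, or fast fibres, and sexes can differ in the proportion of each. Polyamines are small charged molecules that growing cells need, made from ornithine and S-adenosylmethionine.

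The libraries held 22043145 to 38483572 counts, and genes of mitochondrial DNA took 11.2% to 15.8% of them. Sex-linked genes matched the label in 20 of 20 libraries. The tissue label fitted its defining markers: Acta1, skeletal actin, had a median of 23470 to 27210 TPM (a relative level per transcript length) over the 4 groups, and Nppa, a heart atrial gene, had medians of 0 to 0.08 TPM. Non-trained female library 1 had the most counts and the fewest genes above 0 (18727) of all libraries. Its fibro-adipogenic marker level was the lowest of its group (mean log2 CPM 3.44). The same held for its tendon (-0.42), Schwann (1.71), macrophage (1.29), endothelial (4.39), adipocyte (2.92) and satellite cell (1.81) levels. Its slow (7.15) and fast fibre (12.97) levels were the highest of the group.

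Compared per length, Mybph was the highest and Rspo3 the lowest of the 8 genes in every group. Mybph averaged 68.1 ± 24.3 TPM in trained males, 98.2 ± 41.5 TPM in non-trained males, 301 ± 71.2 TPM in trained females and 259 ± 83.2 TPM in non-trained females (SD, n = 5 each). Rspo3 averaged 0.626 ± 0.304 TPM in trained males, 0.260 ± 0.157 TPM in non-trained males, 0.960 ± 0.440 TPM in trained females and 0.990 ± 0.623 TPM in non-trained females (SD, n = 5 each). Estimated counts of single libraries ran from 3 to 84 for Rspo3, so its values carry the largest counting error of the set, and from 1467 to 15032 for Mybph.

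The stretch before the start site is shown for the secreted factor and structural genes of the set that RefSeq's promoter table holds, because each carries a readable feature there. The lines give 250 bases before a RefSeq transcript start on GRCm38.p6, 5′ to 3′ on the gene's strand. Capitals mark a repeated run in Pla2g5 (chr4:138863470-138863719, minus strand), the letters TATAA in Kazald1 (chr19:45074991-45075240, plus strand), and 2 adjacent oestrogen response half-sites followed by TATAA letters in Mybph (chr1:134193198-134193447, plus strand).
Pla2g5: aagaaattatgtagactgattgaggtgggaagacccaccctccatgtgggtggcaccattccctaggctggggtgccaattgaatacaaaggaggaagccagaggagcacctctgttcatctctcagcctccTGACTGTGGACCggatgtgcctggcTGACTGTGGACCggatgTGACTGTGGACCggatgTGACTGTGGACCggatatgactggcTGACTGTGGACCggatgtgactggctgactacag
Kazald1: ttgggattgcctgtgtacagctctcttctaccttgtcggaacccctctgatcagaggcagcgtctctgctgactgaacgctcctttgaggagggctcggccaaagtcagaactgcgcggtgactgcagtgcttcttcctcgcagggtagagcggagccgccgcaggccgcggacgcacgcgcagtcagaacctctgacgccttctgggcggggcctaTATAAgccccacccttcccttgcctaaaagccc
Mybph: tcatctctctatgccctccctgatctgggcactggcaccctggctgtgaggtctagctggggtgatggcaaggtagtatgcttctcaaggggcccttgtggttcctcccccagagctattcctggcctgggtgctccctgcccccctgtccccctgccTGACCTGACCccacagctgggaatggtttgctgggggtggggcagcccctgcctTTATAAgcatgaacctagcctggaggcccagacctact
The run of 12 letters TGACTGTGGACC occurred 5 times before Pla2g5, and 2.62% of 32851 promoter windows had as many copies of some 12-letter run. Both strands were searched for exact matches in windows of the 250 bases before a start, of which 9 belonged to 4 of the 8 genes (Pla2g5, Kazald1, Ak4 and Mybph). The letters TATAA, the core of the TATA box, matched at -33 in Kazald1. In Mybph the first match, at -38, was their other-strand form TTATA, and TATAA itself began 1 base later. On either strand these letters were present in 22.8% of all windows. The oestrogen receptor half-site GGTCA, here on the other strand as TGACC, began at -92 in Mybph with 2 copies. It also occurred in 1 of the windows of Pla2g5, not the one printed, and in 1 of those of Ak4, and it was present in 35.2% of all windows, so it does not set Mybph apart. None of the 9 windows held a full oestrogen response element, searched as both half-sites facing each other with 3 bases between them and present in 0.0639% of all windows. A match of letters describes the window and shows no binding.

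Levels per library are given in CPM, the read count relative to the scaled total of the library. Pla2g5 (ENSMUSG00000041193, chromosome 4, 138799244 to 138863482, GRCm38), a secreted phospholipase A2, had the largest sex difference of the set. It had 1.94, 1.52, 2.45, 1.44 and 0.498 CPM in trained males and 2.08, 1.65, 2.42, 3.99 and 1.76 CPM in non-trained males. It had 11.4, 4.65, 7.21, 10.4 and 9.52 CPM in trained females and 19.2, 19.2, 17.5, 7.47 and 9.60 CPM in non-trained females. The highest male library lay below the lowest female library, and non-trained females split into 3 high libraries (1, 2 and 3) and 2 lower ones. The log2 difference, male minus female, was -2.47 (SE 0.37) in trained mice and -2.62 (SE 0.36) in non-trained mice. The gene overlaps Pla2g2a on the other strand, which did not pass the filter on low counts.

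Kazald1 (ENSMUSG00000025213, chromosome 19, 45075241 to 45079289) encodes a secreted protein with a Kazal-type protease inhibitor domain, related to the binding proteins of insulin-like growth factors. It had 2.71, 3.10, 3.12, 3.09 and 1.91 CPM in trained males and 2.45, 3.30, 4.43, 4.26 and 2.62 CPM in non-trained males. It had 9.80, 4.83, 7.48, 7.16 and 5.86 CPM in trained females and 14.0, 11.3, 11.8, 6.11 and 5.14 CPM in non-trained females. The sexes did not overlap in CPM, and the 3 non-trained female libraries that were high for Pla2g5 were also the 3 highest for Kazald1. These 3 held the most counts of their group, 31619495 to 38483572, against 22043145 and 25085156 in libraries 4 and 5. They were also the highest of the group for Ces1d, Mybph and Tmem266, the lowest for Ak4, and neither for Rspo3 and Mettl21e. Libraries 1, 2 and 3 were the lowest of the group in macrophage level (mean log2 CPM 1.29, 1.85 and 2.35, against 2.94 and 3.12). The same held for their fibro-adipogenic, endothelial and Schwann levels, and their fast fibre level was the highest. They were neither for the adipocyte, tendon, satellite cell and slow fibre levels. The part of library depth was not tested, nor was that of these levels apart from the slopes given below. The log2 difference was -1.33 (SE 0.26) in trained mice and -1.51 (SE 0.26) in non-trained mice.

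Rspo3 (ENSMUSG00000019880, chromosome 10, 29452416 to 29535867) encodes R-spondin 3, a secreted ligand of LGR receptors that protects Wnt receptors from removal. By group mean in CPM, trained males lay between non-trained males and both female groups, as they also did for Ak4, Mettl21e and Tmem266. Rspo3 had 1.29, 1.19, 0.547, 0.914 and 1.3 CPM in trained males and 0.643, 0.373, 0.104, 0.170 and 0.638 CPM in non-trained males. It had 2.89, 1.82, 0.408, 1.68 and 1.95 CPM in trained females and 1.57, 2.10, 0.745, 0.966 and 2.93 CPM in non-trained females. The sexes did not overlap in non-trained mice, whereas in trained mice female library 3 lay below every male library. The log2 difference was -0.74 (SE 0.47) in trained mice and -2.08 (SE 0.50) in non-trained mice.

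Ces1d (ENSMUSG00000056973, chromosome 8, 93166068 to 93197838) encodes carboxylesterase 1D, a lipid hydrolase known from liver and adipose tissue. It had 16.7, 12.6, 24.6, 9.81 and 34.5 CPM in trained males and 22.2, 28.2, 28.9, 22.6 and 25.8 CPM in non-trained males. It had 76.3, 62.6, 87.6, 53.5 and 67.2 CPM in trained females and 62.9, 86.3, 76.6, 47.2 and 48.2 CPM in non-trained females. The sexes did not overlap, and trained males were the most spread group relative to their mean. They averaged 19.6 ± 9.97 CPM and non-trained males 25.5 ± 3.10 CPM (SD, 5 libraries each). The log2 difference was -1.82 (SE 0.27) in trained mice and -1.33 (SE 0.27) in non-trained mice. Ces1d lies in a cluster of close copies, so reads shared among them may be assigned imprecisely.

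Ak4 (ENSMUSG00000028527, chromosome 4, 101419277 to 101466995) encodes an adenylate kinase of the mitochondrial matrix. It had 4.84, 5.69, 4.73, 5.38 and 8.44 CPM in trained males and 4.96, 2.80, 1.73, 3.92 and 6.96 CPM in non-trained males. It had 14.0, 25.7, 20.7, 14.0 and 23.9 CPM in trained females and 11.2, 9.79, 9.91, 13.1 and 13.2 CPM in non-trained females. In CPM every trained female library lay above every non-trained female library, and both lay above every male library. In TPM the ranges overlapped, at 4.67 to 8.92 in trained females, 3.69 to 5.73 in non-trained females and up to 4.54 in males. The log2 difference between the sexes was -1.75 (SE 0.27) in trained mice and -1.48 (SE 0.28) in non-trained mice.

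Mybph (ENSMUSG00000042451, chromosome 1, 134193448 to 134201232) encodes myosin binding protein H, a component of the thick filament. It had 84.0, 46.5, 112, 92.6 and 63.7 CPM in trained males and 82.4, 130, 50.8, 148 and 151 CPM in non-trained males. It had 333, 312, 457, 474 and 298 CPM in trained females and 420, 300, 427, 216 and 204 CPM in non-trained females. The sexes did not overlap, and non-trained female libraries 4 and 5 came nearest to the males. The log2 difference was -2.23 (SE 0.31) in trained mice and -1.48 (SE 0.30) in non-trained mice. Mybph overlaps Adora1, an adenosine receptor gene on the other strand, at a mean of 3.89 CPM. No source used here says whether the counting used strand, so reads of the overlap cannot be told apart.

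Mettl21e (ENSMUSG00000046828, chromosome 1, 44204070 to 44218961) belongs to the METTL21 group of lysine methyltransferases. It had 2.03, 1.52, 1.25, 2.46 and 1.44 CPM in trained males and 1.35, 1.03, 0.935, 0.511 and 1.95 CPM in non-trained males. It had 4.47, 2.58, 3.90, 0.986 and 3.52 CPM in trained females and 6.12, 3.56, 2.04, 2.24 and 4.27 CPM in non-trained females. In trained mice the sexes overlapped through female library 4, the lowest of all trained libraries, and in non-trained mice they did not overlap. The log2 difference was -0.83 (SE 0.38) in trained mice and -1.66 (SE 0.39) in non-trained mice. Mettl21e overlaps a processed pseudogene, Gm15833, on the other strand.

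Tmem266 (ENSMUSG00000032313, chromosome 9, 55326913 to 55438345) encodes a membrane protein with a voltage sensor domain like that of proton channels. Its range was 1.38 to 3.41 CPM in trained males, 1.59 to 2.74 CPM in non-trained males, 4.36 to 8.46 CPM in trained females and 2.81 to 11.1 CPM in non-trained females. The sexes did not overlap within a training state, but the highest trained male library lay above the lowest non-trained female libraries. The log2 difference was -1.42 (SE 0.33) in trained mice and -1.47 (SE 0.34) in non-trained mice.

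**Figure D1:**
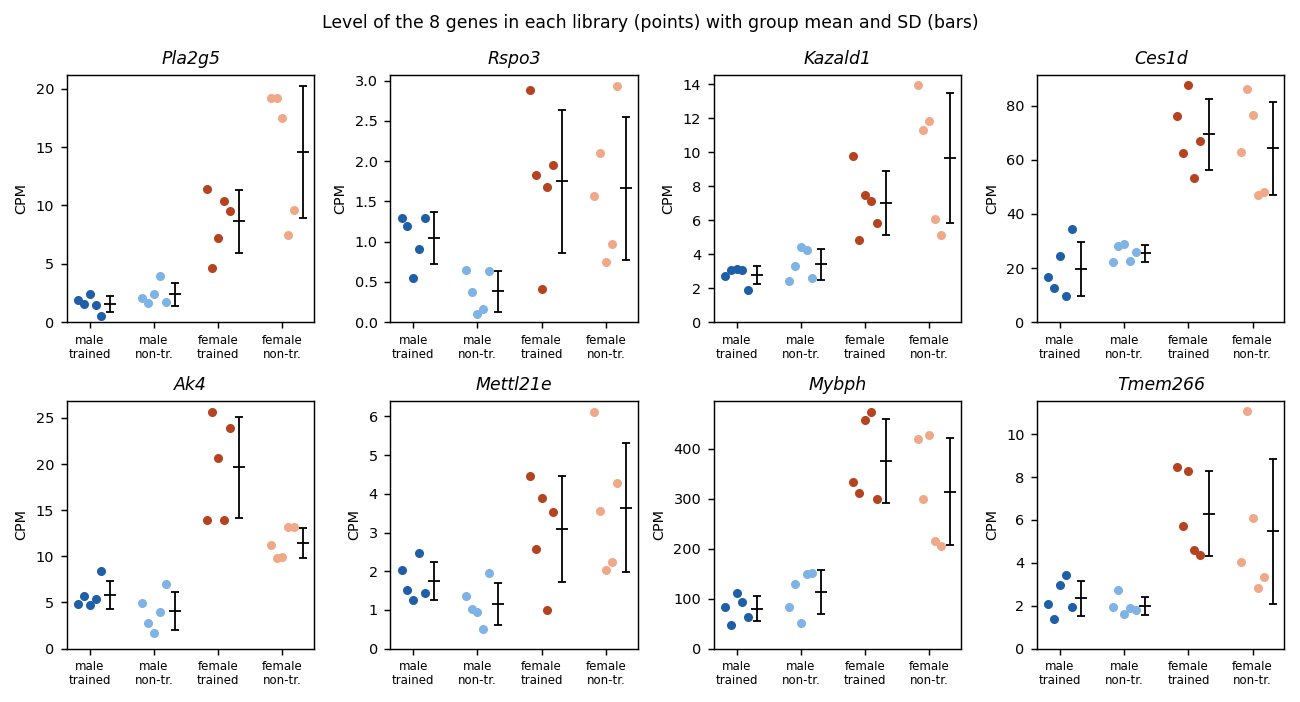
Level of the 8 genes in CPM (y axis, from 0) in each library by group, trained males, non-trained males, trained females and non-trained females from left to right. Points are libraries and bars the mean and SD of 5, and for Ak4 the trained female libraries, from 14.0 to 25.7 CPM, lie above all others.

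All 10 male libraries lay below all 10 female libraries for 5 of the 8 genes, namely Pla2g5, Kazald1, Ces1d, Ak4 and Mybph, and the background was 0.476% of 15136 autosomal genes tested. Within a training state the male libraries lay below the female ones for 6 of 8 genes in trained mice (background 3.38%) and for 8 of 8 in non-trained mice (background 2.34%). These counts, all in CPM, restate the choice of the genes. Over all 20 libraries the sexes overlapped in TPM for Ak4 (highest male 4.54, lowest female 3.69) and for Kazald1 (5.11 and 5.06). By group mean in CPM, both female groups stood above both male groups for all 8 genes. Ak4, Rspo3 and Tmem266 had the higher mean CPM with training in each sex (the TPM of Rspo3 given above ran the other way in females), and Pla2g5 and Kazald1 the lower mean with training in each sex. Ces1d and Mybph were highest in trained females and lowest in trained males, and Mettl21e was highest in non-trained females and lowest in non-trained males. No pair of groups that differ in training alone passed the edgeR test.

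Markers of other cells were set beside these differences. By edgeR, 3.39% of all genes were higher and 2.22% lower in males in trained mice, and 3.14% and 2.07% in non-trained mice. Of 10 macrophage markers, 6 were higher in males in trained mice and 6 in non-trained mice. Their summed level was 121 to 754 CPM in trained males, 154 to 377 CPM in non-trained males, 70.8 to 146 CPM in trained females and 42.0 to 141 CPM in non-trained females. Of 10 adipocyte markers, 1 was lower in males in each training state, Car3, a carbonic anhydrase gene that muscle fibres also express. Without Car3 the adipocyte sum overlapped between the sexes, at 133 to 542 CPM in trained males, 167 to 372 CPM in non-trained males, 260 to 379 CPM in trained females and 147 to 277 CPM in non-trained females. None of 10 fibro-adipogenic, 10 endothelial, 8 tendon or 12 fast fibre markers passed the edgeR test for sex in either state, 1 of 9 Schwann markers was lower in trained males, and no marker of these lists was at 0 throughout a group. Of 7 satellite cell markers, 1 was higher and 1 lower in trained males and 1 lower in non-trained males. Apart from slopes within the groups, the part of these cells in the differences of the 8 genes was not tested.

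The 8 genes were next compared with the slow fibre content of the same library. The slow fibre level, the mean log2 CPM of 14 genes of slow fibres, was 5.54 ± 0.47 in trained males, 4.81 ± 0.76 in non-trained males, 6.59 ± 1.07 in trained females and 6.66 ± 0.74 in non-trained females (SD, n = 5 each). Of these 14 genes 1 passed as lower in males in trained mice (2.22% of all genes), with a median log2 difference of -1.31. In non-trained mice 6 passed as lower (2.07% of all genes), with a median of -1.72. Myh7, slow myosin heavy chain, averaged 385 ± 211 CPM in trained males and 1495 ± 865 CPM in trained females (SD, n = 5 each). Tnnc1, slow troponin C, averaged 44.4 ± 21.6 CPM in trained males and 182 ± 114 CPM in trained females. Neither passed for sex in trained mice (adjusted p = 0.079 and 0.064, edgeR). Both passed in non-trained mice (adjusted p = 0.016 and 0.014, edgeR). There Myh7 averaged 190 ± 143 CPM in males and 1410 ± 611 CPM in females, and Tnnc1 20.4 ± 14.1 and 158 ± 69.1 CPM. In muscle RNA of this kind, fewer slow fibres and less slow-fibre RNA per fibre cannot be told apart. Female libraries 3 of both training states had the lowest slow fibre levels of their sex, 4.76 in the trained and 5.34 in the non-trained one.

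Within the groups, none of the 8 genes followed the slow fibre level past an adjusted p of 0.05 by edgeR's quasi-likelihood test, against 0.376% of all genes, and none did by limma-voom. Without adjustment 1632 of all 15709 genes passed, and 1 of the 8 did. That gene was Rspo3, with a slope of 0.73 log2 units per log2 unit of slow fibre level (SE 0.25, 95% interval 0.21 to 1.25, adjusted p = 0.24, 0.078 to 0.99 over the alternatives). The slope of Rspo3 was 0.83 in the 10 female libraries alone and 0.43 in the 10 male libraries alone. Without trained female library 3 and non-trained female library 3, a choice made after the data were seen, it was 0.27 (adjusted p = 0.99). Ak4 had a slope of 0.19 (interval -0.08 to 0.45), which was 0.60 without those 2 libraries.

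The other slopes were close to 0 or below it. Tmem266 had the lowest at -0.27 (interval -0.60 to 0.05, adjusted p = 0.58). Mybph, Ces1d and Kazald1 had slopes of -0.16, -0.14 and -0.14. Pla2g5 had a slope of -0.004 (interval -0.38 to 0.37) and Mettl21e one of 0.003 (interval -0.43 to 0.44). The median over the 8 genes was -0.07, against -0.001 over all genes.

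**Figure D2:**
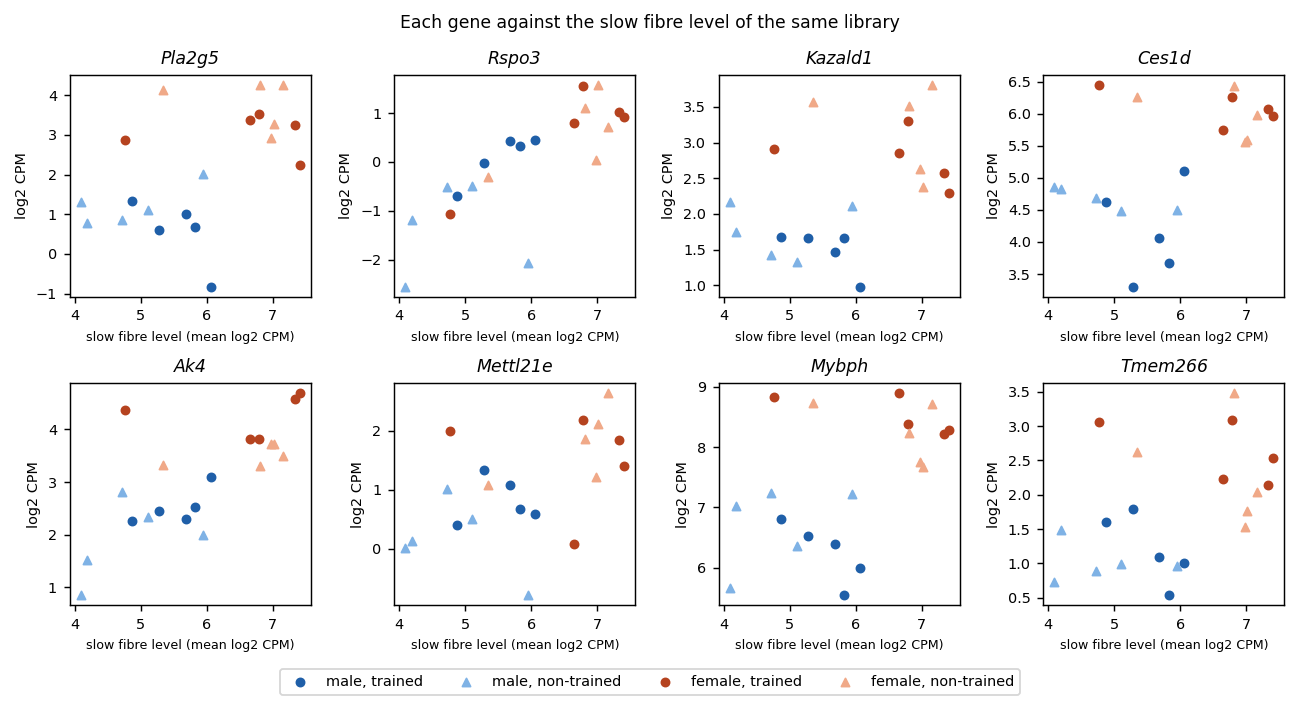
Log2 CPM of each gene (y axis) against the slow fibre level of the same library (x axis, mean log2 CPM of 14 genes), 20 libraries per panel coloured by sex with circles for trained and triangles for non-trained mice. Rspo3 has the steepest slope within groups (0.73), and trained female library 3 has the lowest slow fibre level of the females (4.76).

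The difference between the sexes at an equal slow fibre level describes how far the level and the genes move together. With the slow fibre level in the model, the log2 difference of Rspo3 was 0.12 in trained mice, in place of -0.74, and -0.65 in non-trained mice, in place of -2.08. For Pla2g5 it was -2.47 in trained mice and -2.63 in non-trained mice, and for Ak4 it was -1.57 and -1.15. Kazald1, Ces1d, Mybph and Tmem266 had larger differences with the level in the model than without it in both states, for example -1.71 in trained mice and -1.96 in non-trained mice for Tmem266. Slow fibre levels ran from 4.09 to 6.06 in males and from 4.76 to 7.41 in females, so the sexes share only part of that range. The shift of Rspo3 also follows its slope within the groups, which was smaller without female libraries 3 of both training states. The sex difference was not refitted without those libraries.

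**Figure D3:**
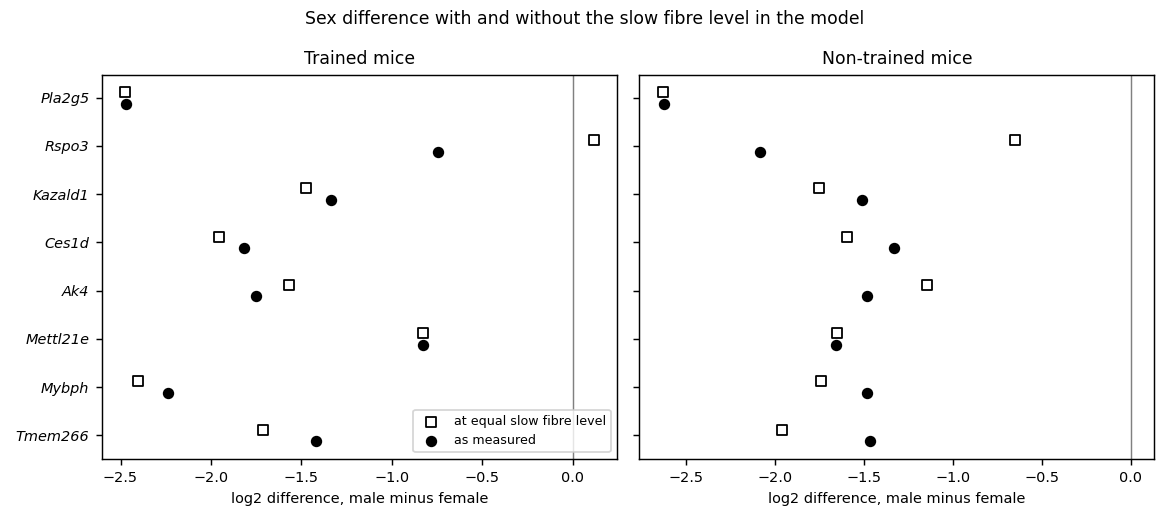
Log2 difference, male minus female (x axis), of each gene in trained and in non-trained mice, as measured (filled) and at an equal slow fibre level (open). Rspo3 moves to 0.12 in trained mice and to -0.65 in non-trained mice, and the other 7 genes stay at -0.83 or below.

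Other marker levels were examined in the same way. None of the 8 genes passed the edgeR test of a slope on the adipocyte level (background 0.503%). Unadjusted, 1675 of all genes and 1 of the 8 passed. Ces1d had the highest such slope, 0.39 (SE 0.11, adjusted p = 0.23), and it passed without non-trained female library 5 (slope 0.47, adjusted p = 0.044, against 0.044 to 0.52 over all alternatives). With the adipocyte level in the model the sex difference of Ces1d was -1.59 in trained mice and -1.5 in non-trained mice. None of the 8 passed a slope on the fibro-adipogenic level (background 16.1%), the endothelial level (0.166%), the Schwann level (0.471%) or the macrophage level (3.61%) by edgeR. On the endothelial level 2 passed without adjustment, Pla2g5 with a slope of -2.08 (SE 0.68, adjusted p = 0.19) and Kazald1 with -1.56 (SE 0.48, adjusted p = 0.16), and on the other 3 levels none did. Among all genes, 2302 passed without adjustment on the endothelial level, 4715 on the fibro-adipogenic, 1947 on the Schwann and 2577 on the macrophage level. The endothelial level ran from 4.39 to 5.19 over all libraries, a narrow range for a slope. The lowest value was that of non-trained female library 1, which also held the highest Kazald1 level of all libraries (14.0 CPM). The endothelial slopes were not refitted without that library.

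Training was then compared with no training, a contrast that the stated choice of the genes, by sex, did not name. By sex, 8 of the 8 genes were without overlap in non-trained mice and 6 in trained mice. The choice may therefore have leaned on the non-trained libraries. Training differences within a sex and the interaction cannot be taken as independent of it. None of the 8 genes passed an adjusted p of 0.05 by edgeR in females (background 0% of 15709 genes), in males (0%), in the mean of both sexes (0.0127%) or in the training by sex interaction (0%). DESeq2 and limma-voom called none of them either. Without adjustment 2 of the 8 passed in females, 1 in males, 3 in the mean of both sexes and 0 in the interaction, where 1347, 676, 1441 and 656 of all genes did. The median log2 difference of the 8 genes was 0.10 in females, -0.03 in males and 0.03 in the mean, against 0.004, 0 and 0.002 over all genes.

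Ak4 had the clearest values in females, where the groups overlapped in TPM but not in CPM. Absence of overlap in CPM held for 1 of the 8 genes and for 1.35% of all genes. The log2 difference of Ak4, trained minus non-trained, was 0.78 in females (SE 0.26, interval 0.23 to 1.34, adjusted p = 0.47 by edgeR) and 0.51 in males (interval -0.07 to 1.09, adjusted p = 0.99). The mean over both sexes was 0.65 (interval 0.25 to 1.05, adjusted p = 0.36). Pla2g5 went the other way, with -0.76 in females (interval -1.46 to -0.05, adjusted p = 0.55) and -0.60 in males (interval -1.39 to 0.18). Its mean over both sexes was -0.68 (SE 0.25, adjusted p = 0.42).

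In males the groups overlapped for all 8 genes (background without overlap 1.09%). Rspo3 had a log2 difference of 1.42 in males (SE 0.50, interval 0.38 to 2.47, adjusted p = 0.99 by edgeR), with 1 trained male library, library 3, inside the non-trained range. In females it was 0.08 (interval -0.88 to 1.04), and the interaction, male minus female training difference, was 1.34 (interval -0.07 to 2.76, adjusted p = 1.0). With the slow fibre level in the model, added after the data were seen, the male difference of Rspo3 was 0.82 and the interaction 0.77. The slow fibre level was itself 5.54 in trained and 4.81 in non-trained males, and its part in the value for Rspo3 beyond this was not tested. The slope used in that model was smaller without female libraries 3 of both training states.

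Mettl21e had 0.59 in males (interval -0.22 to 1.39) and -0.24 in females (interval -1.01 to 0.52). Mybph had -0.50 in males (interval -1.13 to 0.13) and 0.26 in females (interval -0.37 to 0.88). Kazald1 had -0.29 in males and -0.47 in females, and Ces1d -0.38 in males and 0.11 in females. Tmem266 had 0.24 in males and 0.19 in females. The interval of each of these differences includes 0.

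**Figure D4:**
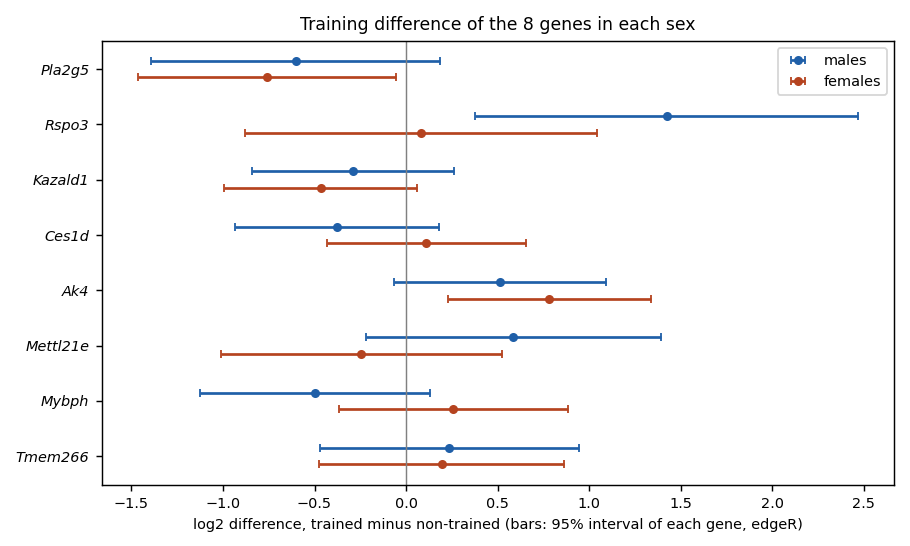
Log2 difference, trained minus non-trained (x axis), of each gene in males (blue) and in females (red), with the 95% interval of each gene from edgeR. The intervals of Ak4 (0.23 to 1.34) and Pla2g5 (-1.46 to -0.05) in females and of Rspo3 (0.38 to 2.47) in males do not include 0, and none passes after adjustment over all genes.

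Relatives and pathway partners of the 8 genes were listed, 108 in all with oestrogen and progesterone receptors and polyamine genes, of which 73 passed the filter on low counts. By edgeR, 6 were higher, 7 lower and 60 did not pass in trained males against females, where 3.39% of all genes were higher and 2.22% lower. In non-trained males, 6 were higher, 7 lower and 60 did not pass, against 3.14% and 2.07% of all genes. None passed for training in either sex or in the mean. No gene of the 15709 passed the interaction by edgeR, and 1 did by DESeq2, so a relative called in 1 training state alone is not shown to differ between the states.

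None of the 4 measured relatives of Pla2g5 passed for sex. Pla2r1, a receptor of secreted phospholipases A2, had 0.31 in trained and 0.49 in non-trained mice (adjusted p = 0.30 and 0.079, edgeR), and Pla2g2d, another secreted phospholipase A2, 1.61 and 1.5 (adjusted p = 0.072 and 0.089). Among 11 partners of Rspo3, Lrp5, a Wnt co-receptor, was lower in non-trained males by -0.31 (adjusted p = 0.039), and Sdc4, a heparan sulphate proteoglycan, in trained males by -0.55 (adjusted p = 0.045). The Lrp5 call was lost when any 1 of 7 libraries was left out, namely non-trained female libraries 2, 4 and 5 and non-trained male libraries 1, 2, 3 and 5 (adjusted p up to 0.10), and with library size alone (0.15). The Sdc4 call was lost when any 1 of 14 was left out (adjusted p up to 0.12), with library size alone (0.098) and without the low-count filter (0.085). Lgr4, a receptor of R-spondins, had 0.09 in trained and 0.03 in non-trained mice and did not pass.

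Of 11 genes around insulin-like growth factors, the wider group of Kazald1, 3 were higher in males in each training state and 1 was lower in trained males. Htra1, a secreted protease that cleaves their binding proteins, was higher by 0.76 in trained mice (adjusted p = 0.0062) and by 0.89 in non-trained mice (adjusted p = 0.0018). Igf1, the growth factor itself, had 29.9 ± 7.59 CPM in trained males and 10.8 ± 3.46 CPM in trained females (SD, n = 5 each). Its log2 difference was 1.46 (adjusted p = 0.0069, edgeR) there and 1.22 in non-trained mice (adjusted p = 0.020), the second lost without non-trained female library 2 (adjusted p = 0.053) and without the low-count filter (0.055). Igfbp4, a binding protein, was higher in non-trained males by 0.83 (adjusted p = 0.0042). Igf2 (1.17) and the receptor gene Igf1r (-0.32), named after their values were seen, passed in trained mice. These calls were lost when any 1 of 15 libraries was left out for Igf2 and any 1 of 5 for Igf1r (adjusted p up to 0.12 and 0.085), and both without the low-count filter (0.11 and 0.074). That of Igf2 was also lost by limma-voom (0.071) and that of Igf1r with library size alone (0.059).

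Of 11 genes of adenylate kinases and AMP handling, the group of Ak4, the AMP deaminase gene Ampd3 was lower in males by -0.55 in trained mice (adjusted p = 0.022) and by -0.58 in non-trained mice (adjusted p = 0.018). The Ampd3 call was lost in trained mice without female library 4 or 5 or male library 1, and in non-trained mice without male library 3 (adjusted p up to 0.063), and in both with library size alone (0.079 and 0.069). Ak3, the other matrix adenylate kinase listed, was lower in non-trained males by -0.27 (adjusted p = 0.041), a call lost when any 1 of 8 libraries was left out (adjusted p up to 0.11), with library size alone (0.11) and without the low-count filter (0.063). Of 5 relatives of Mybph, Mybpc1, slow myosin binding protein C, was lower in males by -0.77 in trained mice (adjusted p = 0.024) and by -0.94 in non-trained mice (adjusted p = 0.0081), the trained call lost without female library 2 or 3 (adjusted p up to 0.066) and without the low-count filter (0.076).

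Of 7 relatives of Mettl21e, Mettl23 was lower in males by -0.47 in trained mice (adjusted p = 0.0055) and by -0.52 in non-trained mice (adjusted p = 0.0030). Mettl22 was lower by -0.36 in trained males (adjusted p = 0.026), a call lost without trained female library 1, 2 or 3 or trained male library 3 (adjusted p up to 0.080). Mettl21c, the nearest muscle relative in the list, had 0.33 in trained and 0.81 in non-trained mice and did not pass. Of 10 genes of lipid hydrolysis beside Ces1d, only Ces5a passed, a gene named here after its values were seen, with a mean of 0.35 CPM over all libraries and log2 differences of -2.50 in trained and -2.59 in non-trained mice. The Ces5a call was lost when any 1 of 9 libraries was left out in trained mice, each of the 5 trained males among them, and any 1 of 6 in non-trained mice (adjusted p up to 0.10 and 0.075). Both Ces5a calls were also lost by limma-voom (0.18 in trained and 0.10 in non-trained mice), and the trained one without the low-count filter (0.057). Lpl, lipoprotein lipase, had -0.28 in non-trained mice and did not pass, and neither did Hvcn1, the proton channel related to Tmem266, at 0.66.

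Of 11 polyamine genes 3 were higher in males in each state, Amd1, Odc1 (ornithine decarboxylase) and Smox (spermine oxidase). The trained call of Smox (1.29, adjusted p = 0.024) was lost when any 1 of 5 libraries was left out (trained female library 1, 2 or 5 or trained male library 1 or 2, adjusted p up to 0.064) and without the low-count filter (0.065). The highest, Amd1, encoding S-adenosylmethionine decarboxylase, differed by 2.39 in trained and 2.53 in non-trained mice, in size close to Pla2g5 with the opposite sign. Esr1, an oestrogen receptor, was lower by -0.46 in non-trained males (adjusted p = 0.026). That call was lost when any 1 of 6 libraries was left out (adjusted p up to 0.076).

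**Figure D5:**
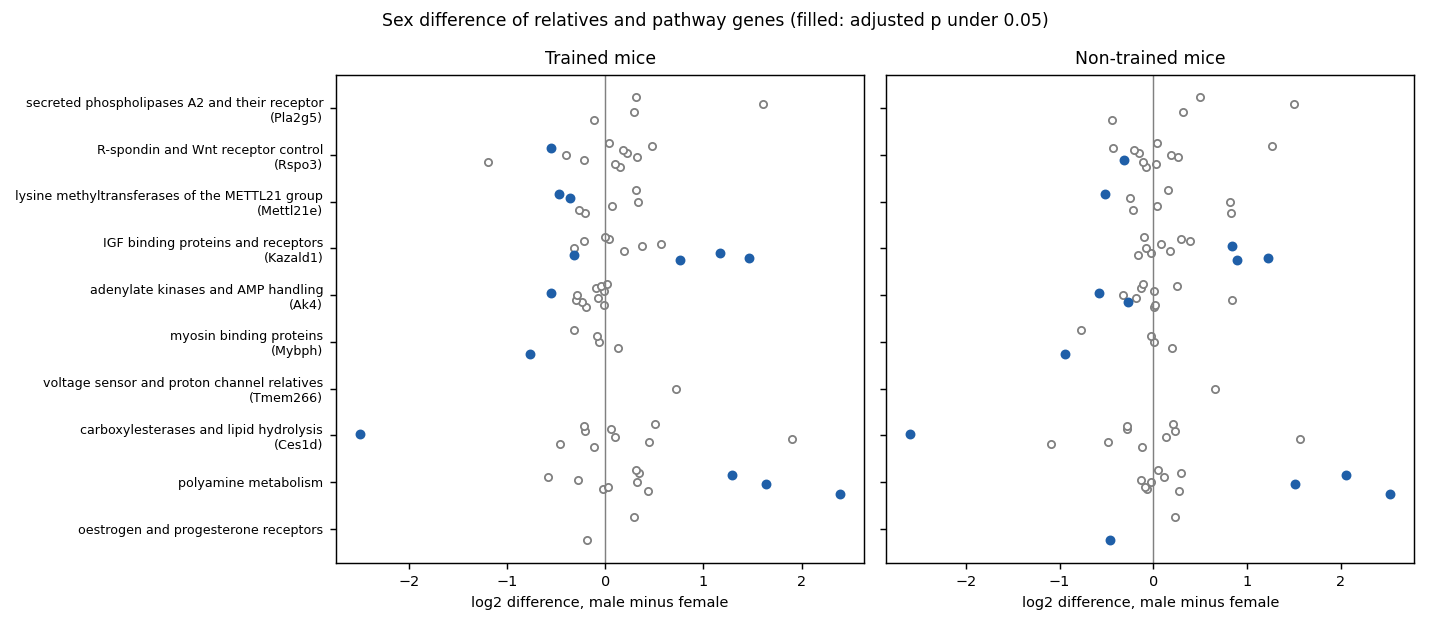
Log2 difference, male minus female (x axis), of the 73 measured relatives and pathway genes by list (rows) in trained and in non-trained mice, filled where the edgeR adjusted p is under 0.05. Most points lie near 0, and the polyamine genes reach 2.39 in trained and 2.53 in non-trained mice.

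The 32 nearest measured neighbours, up to 2 on each side of each gene, gave a view of the chromosome around it. None passed for sex by edgeR in either training state, where 6 in trained and 7 in non-trained mice had an unadjusted p under 0.05. The share of all genes at that unadjusted threshold is not given here, so these counts stand without a background. By DESeq2 2 were higher and 1 lower in trained mice, where it called 8.92% of all genes, and 1 was higher and 1 lower in non-trained mice, where it called 9.33%. These shares of the 32 neighbours lie near or below those of all genes. Adora1, which overlaps Mybph, had -1.29 (SE 0.44, adjusted p = 0.095) in trained and -1.12 (SE 0.45, adjusted p = 0.15) in non-trained mice, the same direction as Mybph itself.

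Within the groups, the 8 genes did not move as one. After removal of the group means, 15 of 28 pairs had a Pearson r above 0 over the 20 libraries, with a median of 0.06. Pla2g5 and Kazald1 were the closest pair (r = 0.77), and Ak4 ran against both, with r = -0.66 for Kazald1 and -0.51 for Pla2g5. The points of these values share library, depth and scaling, and they are given as a description.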

How the data were processed

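Muscle RNA of wild-type mice was measured in 20 libraries. For every library the authors deposited RSEM's gene table, which holds expected counts, TPM and transcript lengths, per the file headers. TPM, the authors' deposited level per length, served for comparing genes. Per the submitters' processing notes, RSEM 1.3.1, STAR 2.5.1, cutadapt, Trim Galore, limma, edgeR and the GRCm38 build were used. No source used here gives the annotation release. RSEM divides reads shared between genes by estimation. Symbols matched 53274 of 53465 identifiers (unmatched: 0.0136% of counts), and coordinates are GENCODE M21 on GRCm38.

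Expected counts were rounded, filtered with filterByExpr (minimum count 10), scaled by TMM and fitted with edgeR 4.0.16 (robust quasi-likelihood, R 4.3.3), 1 coefficient per group, with Benjamini-Hochberg adjustment over all genes. SE is the log2 difference over the square root of F, and marker levels are mean log2 CPM (prior count 2), centred within groups for slopes. The 8 genes, marker lists and family lists were chosen with earlier results of these data known. Named relatives are up to 4 per list with a mean of at least 1 CPM and the smallest unadjusted p for sex in non-trained mice, from the slow list Myh7 and Tnnc1, and the 3 genes most like each of the 8. Lgr4, Car3 and genes that overlap one of the 8 are named outside this rule. Other relatives are said to be named after their values were seen. One gene of a receptor list is not reported here.

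Alternatives were DESeq2 1.42.0, limma-voom 3.58.1, RLE size factors, library size alone, no filter, a stricter filter, libraries stripped of the 20 highest genes and of mitochondrial DNA genes, only the groups compared, Myh7 alone, and each library left out in turn. For relatives and neighbours they were added after the data were seen. In simulated data with 15462 genes, for training in females, 60 of 100 genes changed 1.5-fold and 83 of 100 changed 2-fold were recovered. For slopes on the slow fibre level, with 15456 genes, 83 of 100 slopes of 0.5 and 96 of 100 of 1 were recovered. False calls numbered 7 in the first simulation and 3 in the second. The changed genes were drawn from those above a floor on mean counts that Rspo3 did not reach, so its recovery was not simulated. Many genes were changed at once, which eases the adjusted threshold. No 2 libraries held identical counts.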

Additional observations from a re-analysis of the deposited data

Results flagged for a closer look

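3 values stood apart from the other 4 libraries of their group by Dixon's criterion, among 36 groups of 5 examined (8 genes and the slow fibre level in 4 groups), and chance flags about 1 in 20 groups. Ak4 in trained male library 5 was the highest of its group at 8.44 CPM, where the other 4 lay between 4.73 and 5.69 CPM. The slow fibre level of trained female library 3 was the lowest of its group at 4.76 log2 CPM, where the other 4 lay between 6.65 and 7.41. The slow fibre level of non-trained female library 3 was likewise the lowest at 5.34 log2 CPM, where the other 4 lay between 6.80 and 7.15. The slope of Rspo3 on the slow fibre level without these 2 female libraries is 0.27, in place of 0.73.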

How the results depend on the processing

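No paired analysis was possible because the labels give no replicate numbers shared between the groups. The counts of the 8 genes called stayed at 0 for training, its interaction and the slow fibre level under all alternatives run. For the adipocyte slope the count was 0 to 1 with 1 library left out. Direction changed without a call for the following. The slow fibre slope of Pla2g5 was 0.098 in males alone and 0.017 with Myh7 alone (-0.163 to 0.065 with 1 library left out). That of Mettl21e was -0.006 with library size alone, -0.28 in males alone, -0.009 with Myh7 alone and -0.083 without both low female libraries (-0.15 to 0.22 with 1 library left out). That of Mybph was 0.006 in males alone. The interaction of Tmem266 was -0.10 by limma-voom (-0.37 to 0.20 with 1 library left out), that of Ak4 ran from -0.448 to 0.022 and that of Pla2g5 from -0.054 to 0.42. With 1 library left out, training in females ran from -0.426 to 0.026 for Mettl21e and from -0.18 to 0.38 for Rspo3, and the adipocyte slope from -0.14 to 0.11 for Ak4, -0.051 to 0.155 for Mybph and -0.111 to 0.089 for Tmem266. The sex difference of Rspo3 in trained mice was 0.12 with the slow fibre level in the model. Lower relatives in non-trained males numbered 4 with library size alone and 2 to 7 with 1 library left out, the fewest without male library 3. In trained males, higher relatives numbered 4 without a filter and 4 to 9 with 1 library left out, and lower ones 3 without a filter, 4 with library size alone and 3 to 7 with 1 library left out. Neighbours called were 1 higher and 1 lower by DESeq2 in non-trained mice (lower, 0 to 1 with 1 library left out). In trained mice they were 2 higher and 1 lower by DESeq2, 1 higher with library size alone or the stricter filter, and 0 to 2 higher with 1 library left out. Library size alone moved the share of higher calls among all genes for sex to 79.6% in trained and 75.0% in non-trained mice. Rspo3, at 3 to 84 counts, is limited most by depth.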

Other observations

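For each of the 8 genes, the gene with the most similar course over the 20 libraries was looked up after removal of the group means, among 11820 genes with a mean of at least 1 CPM. Pla2g5 was closest to Pla2g7 (r = 0.84), encoding a secreted hydrolase of platelet-activating factor, then to Rsrc2 (0.82). Kazald1 was closest to Ccnk (0.88) and Stim2 (0.87), and Ak4 to Ldhd (0.88), a mitochondrial lactate dehydrogenase gene, and Hsd17b4 (0.81), of peroxisomal fatty acid oxidation. Mybph was closest to Sppl3 (0.79) and Deptor (0.78), Tmem266 to Fbxo8 (0.83), Mettl21e to Tmem81 (0.85), Rspo3 to Hsbp1l1 (0.76) and Ces1d to Hoxa9 (0.79). These values rest on 20 libraries and on the search of many genes, and are given as a description.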
